A study of Mus musculus with 17 samples.

Results

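The immediate early genes of the AP-1 and EGR families were followed in KCs (Kupffer cells, macrophages that reside in liver sinusoids) sorted from mice. The set held 10 genes chosen by symbol, namely Fos, Fosb, Jun, Junb, Jund, Egr1, Egr2, Atf3, Ier2 and Dusp1, among the 25124 genes that each of the 3 tables of RNA sequencing values listed. They were read as a record of cell activation or of the handling of cells before lysis, in 17 samples. TIM4+CD206+ KCs and TIM4+CD206hi KCs, which are gates on the level of the mannose receptor CD206, were taken from untreated tumour-free livers (3 samples of each) and from livers that had received tumour cells through the portal vein 2 weeks earlier (3 samples of each). KCs without tumour were taken from 3 untreated Id3f/f mice, which carry floxed alleles of the transcriptional regulator Id3, and from 2 untreated Clec4fCreId3f/f mice, in which a Cre driven by the KC gene Clec4f deletes them. The labels gave no genotype for the tumour experiment, no tumour cell line, and no strain, age or sex for any sample. They gave no animal for a replicate number either, so that the p-values measure the spread between these samples only.

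Immediate early genes are transcribed within minutes of a stimulus without new protein synthesis, because the factors that act on their promoters are already present and wait for phosphorylation by MAP kinases. FOS and JUN proteins pair through leucine zippers to form AP-1, EGR proteins bind GC-rich sites through zinc fingers, and ATF3 is a stress-induced partner of the same zipper family. DUSP1 removes phosphate from p38, JNK and ERK and so closes the loop. In macrophages these genes respond to microbial and cytokine signals, and in tissues that are digested with enzymes at body temperature they are known to be induced during the digestion itself. The livers of the study were digested by collagenase D and dispase in the warm, then stained, and the cells were sorted into lysis reagent.

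The promoters were compared because 6 of the 10 genes moved together between samples whereas the others did not, as described later. RefSeq (GRCm38.p6) gave promoter entries for 8 of the 10 members, Egr1 and Ier2 being without one. The 250 bases before the start are shown for 3 genes that moved together (Jun, chr4:95052223-95052472 on the reverse strand, Junb, chr8:84978749-84978998 on the reverse strand, and Dusp1, chr17:26508473-26508722 on the reverse strand) and for 2 that did not (Fos, chr12:85473640-85473889 on the forward strand, and Atf3, chr1:191183334-191183583 on the reverse strand). Each runs 5′ to 3′ on the gene's strand, and capitals mark the motifs found on either strand.
Jun: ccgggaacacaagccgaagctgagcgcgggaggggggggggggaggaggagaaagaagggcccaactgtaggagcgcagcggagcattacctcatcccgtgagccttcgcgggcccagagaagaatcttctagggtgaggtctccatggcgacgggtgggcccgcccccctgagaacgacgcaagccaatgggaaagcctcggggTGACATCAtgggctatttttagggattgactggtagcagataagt
Junb: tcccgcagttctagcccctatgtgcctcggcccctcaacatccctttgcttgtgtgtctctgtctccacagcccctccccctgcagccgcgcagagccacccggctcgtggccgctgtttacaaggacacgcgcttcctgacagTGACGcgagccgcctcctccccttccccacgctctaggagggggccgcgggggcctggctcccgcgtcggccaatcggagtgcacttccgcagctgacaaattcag
Dusp1: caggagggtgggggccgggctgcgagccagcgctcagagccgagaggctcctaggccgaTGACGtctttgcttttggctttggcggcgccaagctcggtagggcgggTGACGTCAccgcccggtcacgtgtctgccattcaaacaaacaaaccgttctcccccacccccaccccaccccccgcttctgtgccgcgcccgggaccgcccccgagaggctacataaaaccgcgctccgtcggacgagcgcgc
Fos: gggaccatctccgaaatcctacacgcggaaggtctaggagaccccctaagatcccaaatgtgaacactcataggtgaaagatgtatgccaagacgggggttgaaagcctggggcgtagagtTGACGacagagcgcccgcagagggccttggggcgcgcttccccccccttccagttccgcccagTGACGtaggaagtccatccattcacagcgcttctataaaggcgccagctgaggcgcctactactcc
Atf3: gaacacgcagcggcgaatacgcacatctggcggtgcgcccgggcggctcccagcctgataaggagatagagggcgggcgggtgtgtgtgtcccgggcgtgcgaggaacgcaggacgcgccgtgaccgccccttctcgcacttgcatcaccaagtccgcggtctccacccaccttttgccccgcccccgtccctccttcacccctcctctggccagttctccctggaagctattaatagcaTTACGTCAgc
The capitals in Dusp1 are the full cAMP response element TGACGTCA, found in 1.55% of the 32851 promoters of this length, and its shorter core TGACG, found in 17.8%. The core lies inside the full element and is also the only motif of those searched in the windows of Fos and Junb. Jun carries TGACATCA, a variant bound by JUN and ATF dimers that 2.93% of promoters held, and Atf3 carries TTACGTCA (0.447% of promoters), which overlaps the core on the other strand. The core was present in 6 of the 8 members (Atf3, Dusp1, Egr2, Fos, Fosb and Junb), counting any of the entries of Egr2. The AP-1 site TGANTCA, present in 6.75% of promoters, was in none of the 8 windows, the EGR site GCGNGGGCG (4.70%) was in that of Fosb, and the CArG box bound by serum response factor (1.47%) was in that of Egr2. The motifs thus did not divide the genes that moved together from those that did not, and these are matches of letters in a short window only.

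The defining KC genes were high in every sample. Clec4f lay between 16.11 and 19.65 on the log2 scale of the tables, Timd4 (TIM4) between 13.76 and 15.25 and Adgre1 (F4/80) between 14.58 and 16.35, and Mrc1 (CD206) lay between 12.37 and 13.27 outside the CD206hi table and between 14.96 and 16.19 in it. Id3 itself was at 12.62 ± 0.18 (SD, n = 3) in Id3f/f and 9.82 ± 0.0048 (n = 2) in Clec4fCreId3f/f KCs, a log2 fold change of −2.80 (limma, adjusted p = 1.40e-06). On the linear scale the values of a sample summed to between 32641263 and 39676440 in the tumour experiment and between 21815438 and 24042499 in the Id3 experiment, but they were normalized across samples and keep no library's own depth. Of 16 KC genes, 3 fell with tumour in TIM4+CD206+ KCs and 0 passed by limma in TIM4+CD206hi KCs, with medians of −0.41 and −0.33, and with the deletion 4 rose and 5 fell. Clec4f itself was at 17.64 in Id3f/f and 16.12 in Clec4fCreId3f/f KCs. Genes of other cell types moved with tumour. The summed linear level of 12 epithelial genes was 1934 to 3742 in tumour-free and 41581 to 48670 in tumour-bearing TIM4+CD206+ samples, that of 10 neutrophil genes 8492 to 17347 and 32866 to 35876, and that of 11 endothelial genes 16604 to 29800 and 12829 to 17018. In TIM4+CD206hi samples the epithelial genes summed to 2068 to 2763 without and 55071 to 59571 with tumour, and the endothelial genes to 179354 to 286360 and 117950 to 145667. Of the epithelial genes 10 of 11 tested rose with tumour in TIM4+CD206+ and 11 of 11 in TIM4+CD206hi KCs, of the neutrophil genes 5 of 10 in each and of the monocyte genes 4 of 9 in each, while 7 and 8 of 12 hepatocyte genes fell. Over all genes 3.54% passed in TIM4+CD206+ KCs, 7.23% in TIM4+CD206hi KCs and 6.44% with the deletion. In these bulk samples, fewer cells of a type and less RNA per cell cannot be told apart.

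**Figure D1:**
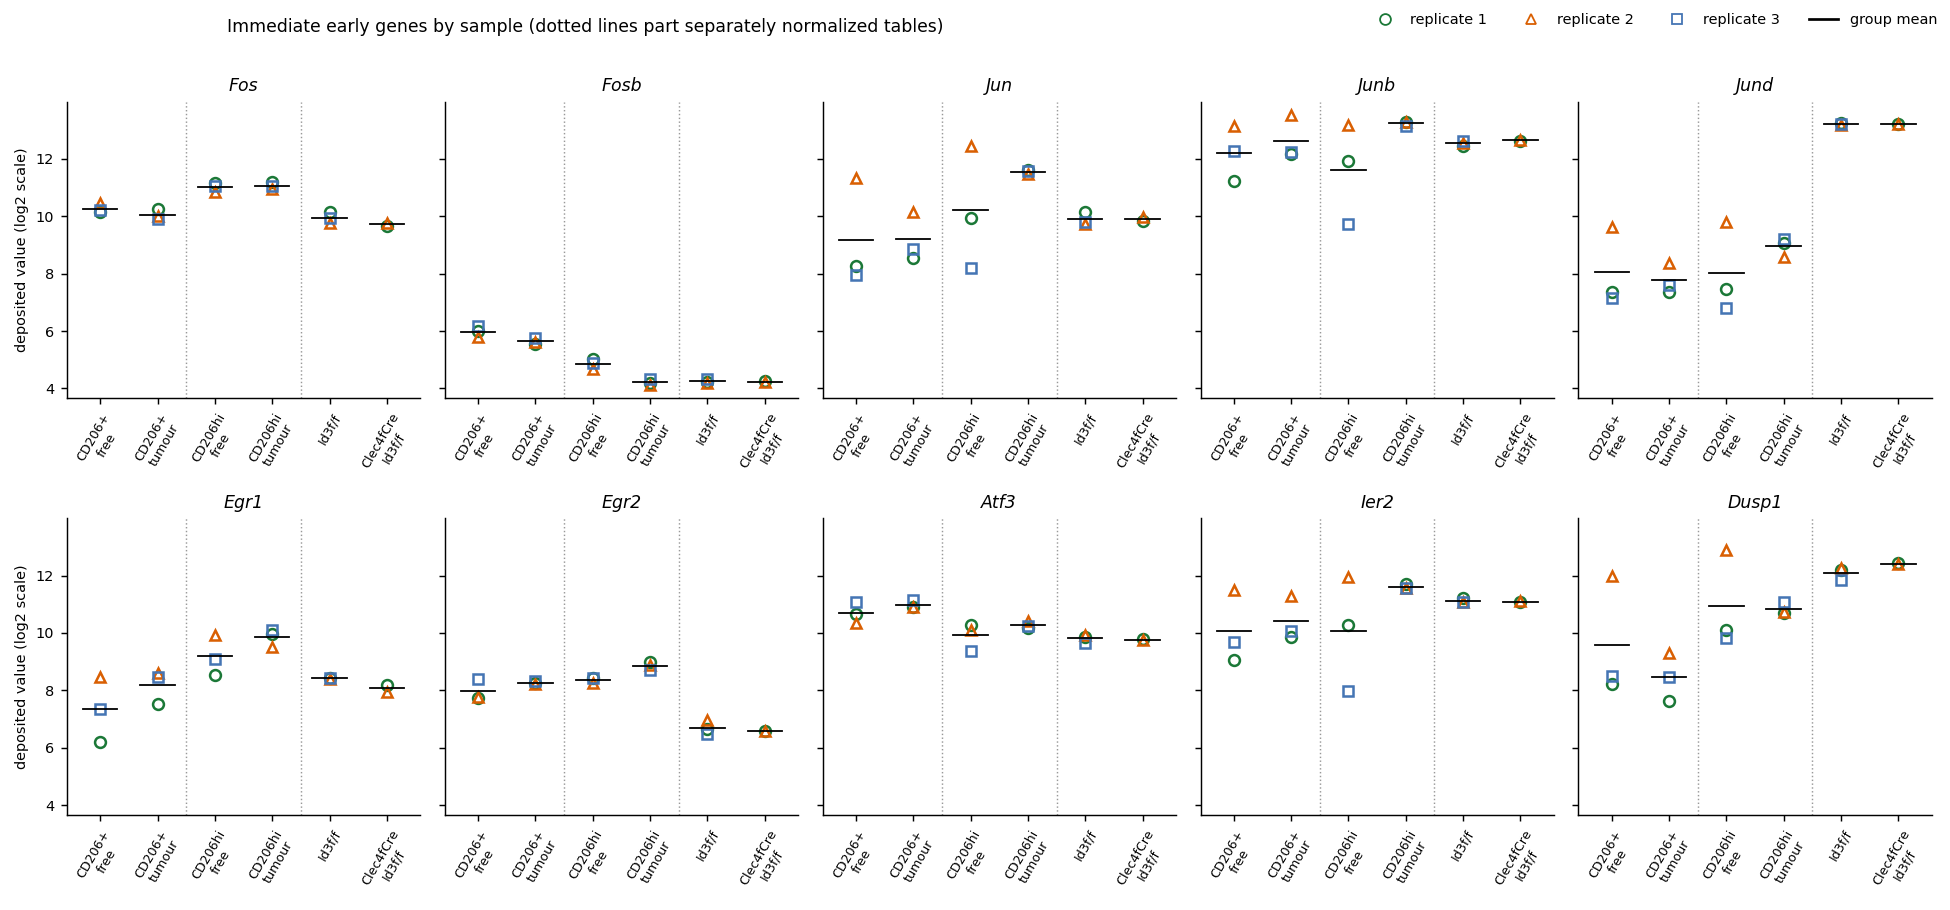
Deposited value of each of the 10 immediate early genes on a log2 scale (vertical axis) in every sample of the 6 groups (horizontal axis). Symbols mark the replicate numbers, horizontal bars the group means, and dotted lines part the 3 tables, which were normalized separately. Tumour-free replicate 2 (triangles) stands above the other tumour-free samples for Jun, Jund, Dusp1 and Ier2 in both KC subsets, whereas Fos and Fosb lie close together within each group.

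All 10 genes were above the filter, a linear value of 10, in all 17 samples, the lowest value being 4.12 for Fosb. To compare levels between genes, the linear values were divided by transcript length and returned to the log2 scale. Per kilobase, Junb had the highest mean in both KC subsets with and without tumour, at 11.36 ± 0.95 in tumour-free and 11.78 ± 0.77 in tumour-bearing TIM4+CD206+ KCs (SD, n = 3 each). In tumour-free TIM4+CD206hi KCs its values (10.77 ± 1.75) overlapped those of Dusp1 (9.95 ± 1.69), the next gene. Atf3, Ier2 and Fos followed in TIM4+CD206+ KCs, at 9.70, 9.47 and 9.19 without tumour, with overlapping sample values between each pair of neighbours. Egr2, Egr1 and Fosb were at the low end, at 6.39, 5.74 and 4.07. Only the steps from Junb to Atf3 and from Egr1 to Fosb were free of overlap in the tumour-free TIM4+CD206+ samples. In tumour-bearing TIM4+CD206hi KCs the order was clearer, with Junb at 12.39, Ier2 at 10.997, Fos at 9.995, Jun at 9.88 and Dusp1 at 9.85, of which the last 3 overlapped. Fosb was lowest in every group. In the Id3 table the order differed at the top, Jund leading at 12.48 ± 0.03 per kilobase in Id3f/f KCs, before Junb at 11.68 and Dusp1 at 11.11. Without division by length, Jund was at 13.18 to 13.25 in all 5 samples there and at 6.79 to 9.80 in the 12 samples of the tumour experiment. Since the tables were normalized separately, this difference was not tested.

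In TIM4+CD206+ KCs, none of the 10 genes differed between tumour-bearing and tumour-free livers at an adjusted p under 0.05 (limma, Benjamini-Hochberg), where 3.54% of the 13233 genes tested did (469 genes). At an unadjusted p under 0.05 it was 0 of 10 members, beside 17.2% of all genes. Of the members, 6 had a positive and 4 a negative change, with a median log2 fold change of 0.15 beside 0.02 over all genes. With the replicate number as a block, 1026 genes but still 0 members passed.

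Values are given in the order of replicates 1, 2 and 3, and a log2 fold change is followed by its 95% interval. Among the JUN genes, Jun, the main AP-1 partner that needs phosphorylation by JNK, was at 8.26, 11.32 and 7.94 in the tumour-free and 8.56, 10.16 and 8.86 in the tumour-bearing samples. Replicate 2 of both groups was the highest, and the ranges overlapped. The log2 fold change was 0.02 (−1.91 to 1.95). Junb, a JUN protein that is a weaker activator, was at 11.24, 13.13 and 12.28 in the tumour-free and 12.15, 13.52 and 12.23 in the tumour-bearing samples (0.42, −0.74 to 1.58). Jund, the member held to be expressed constitutively, was at 7.37, 9.62 and 7.15 in the tumour-free and 7.37, 8.36 and 7.60 in the tumour-bearing samples (−0.27, −1.70 to 1.16). For all 3 genes the spread between replicates was larger than the difference of the means.

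The FOS genes were tighter. Fos was at 10.13, 10.46 and 10.20 in the tumour-free and 10.24, 10.02 and 9.90 in the tumour-bearing samples, with a log2 fold change of −0.21 (−0.64 to 0.21). Fosb, a FOS relative that is induced more slowly, was at 5.99, 5.80 and 6.16 in the tumour-free and 5.56, 5.61 and 5.77 in the tumour-bearing samples. Its groups did not overlap, the tumour-bearing samples being the lower, but 23.4% of all genes had groups apart in either direction and the change of −0.34 did not pass the test (limma, adjusted p = 0.48). Among the EGR genes, Egr1 was at 6.21, 8.46 and 7.36 in the tumour-free and 7.51, 8.60 and 8.47 in the tumour-bearing samples, and the lowest sample was tumour-free replicate 1. Its change of 0.85 (−0.41 to 2.12) was the most positive of the members. Egr2, which is linked to macrophage differentiation, was at 7.73, 7.76 and 8.39 in the tumour-free and 8.26, 8.21 and 8.33 in the tumour-bearing samples (0.31, −0.28 to 0.89).

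Of the remaining genes, Atf3 was at 10.65, 10.35 and 11.07 in the tumour-free and 10.89, 10.89 and 11.13 in the tumour-bearing samples (0.28, −0.21 to 0.77). Ier2, a short nuclear protein whose gene follows serum stimulation, was at 9.04, 11.49 and 9.67 in the tumour-free and 9.86, 11.29 and 10.07 in the tumour-bearing samples (0.34, −1.08 to 1.75). Dusp1, the phosphatase, was at 8.22, 11.99 and 8.50 in the tumour-free and 7.61, 9.29 and 8.46 in the tumour-bearing samples. Its change of −1.11 (−3.24 to 1.01) was the most negative of the members. Tumour-free replicate 2 stood above the other tumour-free samples, and without it the change was 0.10. Within the same replicate number the tumour-bearing sample was the lower in 3 of 3, but the numbers may not mark pairs.

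**Figure D2:**
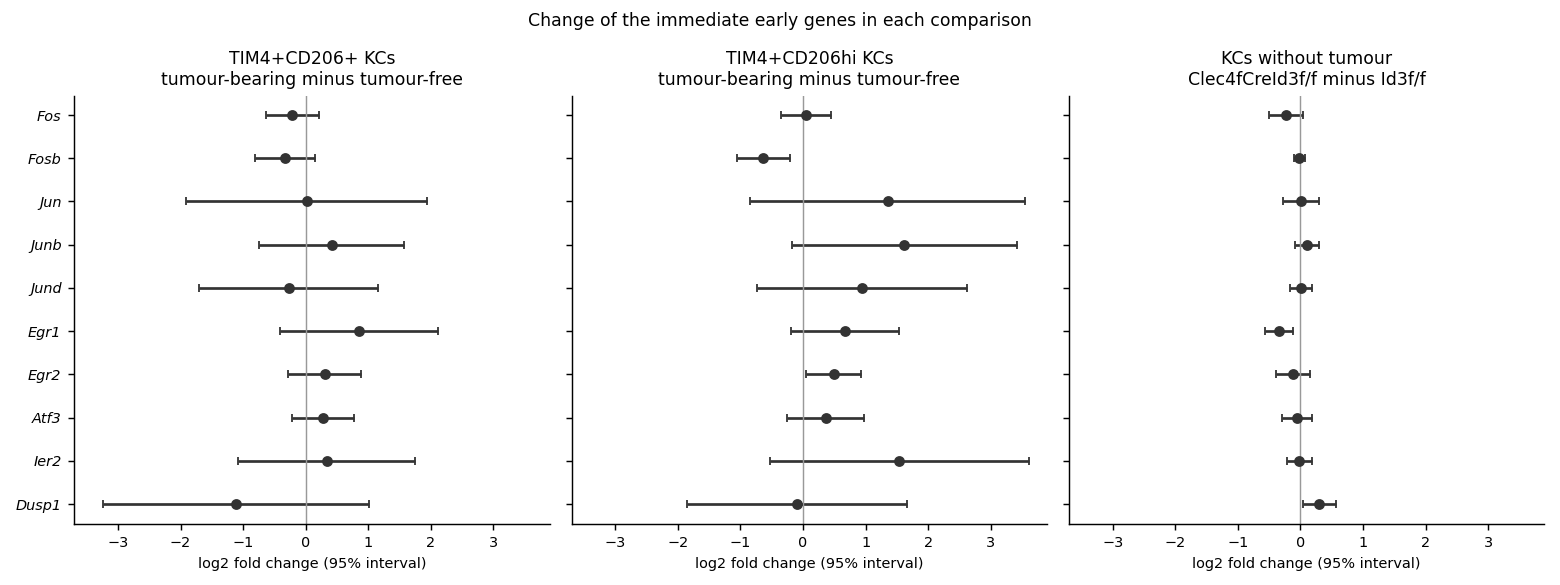
Log2 fold change (horizontal axis) of the 10 genes (vertical axis) in the 3 comparisons, with bars for the 95% interval from limma. The intervals of Jun, Junb, Jund, Ier2 and Dusp1 are wide in both KC subsets (−0.85 to 3.55 for Jun in TIM4+CD206hi KCs) and narrow in the Id3 comparison (−0.28 to 0.29), and 0 of 10 changes passed an adjusted p of 0.05 in each.

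In TIM4+CD206hi KCs, again 0 of 10 members passed, where 7.23% of the 14561 genes tested did (1053 genes). The changes leaned upwards, with 8 of 10 positive and a median of 0.58 beside 0.03 over all genes, or 0.42 beside −0.13 after median centring. The tumour-free samples spread widely for some members. The ratio of their SD to that of the tumour-bearing samples was largest for Jun, at 32.1, where the tumour-bearing SD was only 0.067. It was 2.28 for Egr1, 1.32 for Fos and 0.81, the smallest, for Egr2.

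Jun was at 9.94, 12.46 and 8.21 in the tumour-free and 11.61, 11.48 and 11.57 in the tumour-bearing samples. The 3 tumour-bearing samples lay between the highest tumour-free sample and the other tumour-free samples. Junb was at 11.94, 13.19 and 9.74 in the tumour-free and 13.30, 13.30 and 13.13 in the tumour-bearing samples, and Jund at 7.46, 9.80 and 6.79 in the tumour-free and 9.08, 8.59 and 9.21 in the tumour-bearing samples. For Jund the tumour-bearing samples again lay below the highest tumour-free sample and above the others, while for Junb that sample lay inside their range. The log2 fold changes were 1.35 for Jun (−0.85 to 3.55), 1.62 for Junb (−0.18 to 3.42) and 0.94 for Jund (−0.74 to 2.63). Ier2 was at 10.26, 11.96 and 7.96 in the tumour-free and 11.70, 11.55 and 11.56 in the tumour-bearing samples, a change of 1.54 (−0.52 to 3.60). Tumour-free replicate 3 was the lowest sample and tumour-free replicate 2 the highest for Jun, Jund, Ier2 and Dusp1.

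Dusp1 was at 10.11, 12.88 and 9.83 in the tumour-free and 10.70, 10.74 and 11.09 in the tumour-bearing samples, a change of −0.10 (−1.85 to 1.66). Egr1 was at 8.53, 9.93 and 9.08 in the tumour-free and 9.96, 9.50 and 10.09 in the tumour-bearing samples (0.67, −0.19 to 1.53). Fos did not share this spread, at 11.17, 10.84 and 11.06 in the tumour-free and 11.20, 10.94 and 11.07 in the tumour-bearing samples (0.05, −0.35 to 0.44). Atf3 was at 10.27, 10.11 and 9.36 in the tumour-free and 10.17, 10.42 and 10.23 in the tumour-bearing samples (0.36, −0.26 to 0.98), with replicate 3 the lowest without tumour.

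Fosb and Egr2 were the members whose groups did not overlap, beside 30.7% of all genes. Fosb was at 5.02, 4.67 and 4.87 in the tumour-free and 4.20, 4.12 and 4.34 in the tumour-bearing samples, with a change of −0.63 (−1.06 to −0.21, adjusted p by limma = 0.092). Egr2 was at 8.43, 8.25 and 8.44 in the tumour-free and 8.98, 8.88 and 8.72 in the tumour-bearing samples, with a change of 0.49 (0.05 to 0.92, adjusted p by limma = 0.19). These were also the members with an unadjusted p under 0.05, which 21.1% of all genes had. Fosb passed after quantile normalization (−1.03, adjusted p by limma = 0.024) and after trends with length and GC content had been removed (−0.998, adjusted p by limma = 0.044). Its values are low, and the transformation of the tables shrinks the differences of genes with few reads.

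The calls of most members turned on a single library. Without tumour-free replicate 2 of TIM4+CD206hi KCs, 7 of 10 members passed, 6 higher with tumour and Fosb lower, where 25% of 14505 genes did (17.7% higher and 7.38% lower). The log2 fold changes then were 2.49 for Ier2, 2.48 for Jun, 2.40 for Junb, 1.83 for Jund, 1.04 for Egr1, 0.88 for Dusp1 and −0.73 for Fosb, with adjusted p-values by limma from 0.0063 to 0.035. Fos (−0.04), Egr2 (0.43) and Atf3 (0.46) did not pass. When trends with GC content and length were removed as well, 5 members passed (Jun 2.03, Ier2 1.76, Junb 1.54, Dusp1 0.55 and Fosb −1.20), where 33.8% of genes did. Replicate 2 was the highest tumour-free sample for the 6 genes that rose, so leaving it out raises their changes. Leaving out any other sample gave 0 of 10. Without tumour-free replicate 3, the lowest for Jun, Junb, Jund, Ier2 and Dusp1, the changes were far smaller for most. They were 0.35 for Jun, 0.68 for Junb, 0.33 for Jund, 0.49 for Ier2, 0.62 for Egr1, −0.65 for Dusp1 and −0.62 for Fosb. The removal of trends was chosen after seeing the data.

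**Figure D3:**
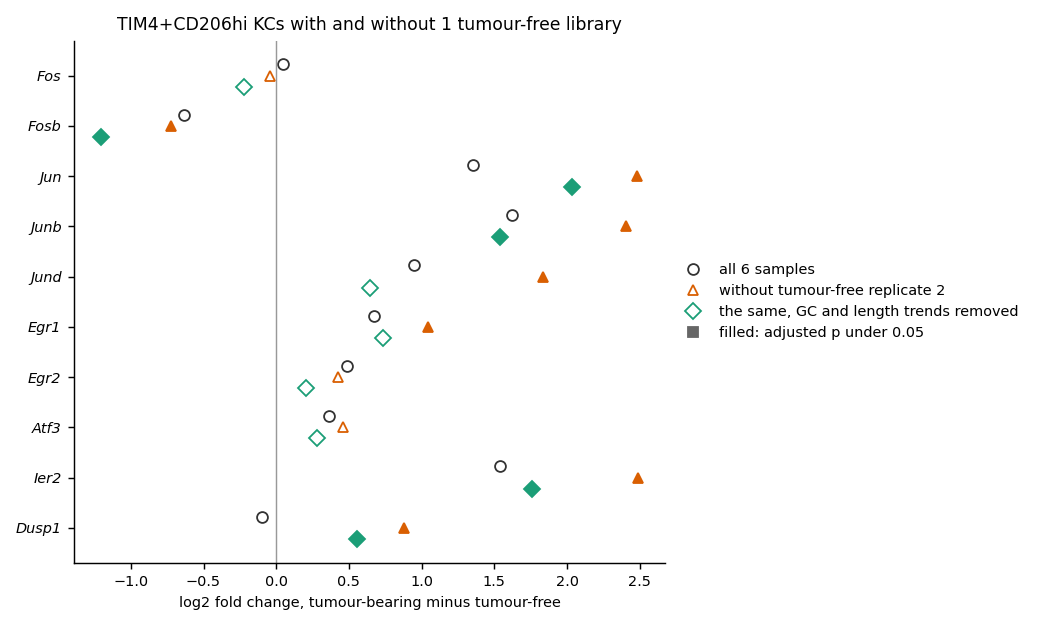
Log2 fold change with tumour in TIM4+CD206hi KCs (horizontal axis) of the 10 genes (vertical axis) with all 6 samples, without tumour-free replicate 2, and without it after removal of GC and length trends. Filled symbols mark an adjusted p under 0.05, which 0, 7 and 5 of the 10 genes reached.

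The library numbered 2 was the highest tumour-free sample for the same 6 genes in both subsets. It was so for 35.5% of all genes in TIM4+CD206+ and 34.9% in TIM4+CD206hi KCs. Its gap to the mean of the other tumour-free samples, on the log2 scale, was 3.22 in TIM4+CD206+ and 3.39 in TIM4+CD206hi KCs for Jun, 3.64 and 2.91 for Dusp1, 2.36 and 2.67 for Jund, 2.14 and 2.85 for Ier2, 1.37 and 2.36 for Junb, and 1.68 and 1.12 for Egr1. These 6 gaps exceeded 1, as did those of 9.38% and 12.9% of all genes. For Fos (0.29 and −0.28), Fosb (−0.27 and −0.28), Egr2 (−0.31 and −0.18) and Atf3 (−0.50 and 0.30) the gap was small. Whether the samples numbered 2 of both subsets came from the same animal is not in the labels. Over 34 and 37 other immediate early genes the median gap was 0.72 and 0.53, with 12 genes above 1 in each subset, whereas the median over all genes was near 0.

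The lowest tumour-free library differed between the subsets. In TIM4+CD206hi KCs it was replicate 3 for 6 members (Jun, Junb, Jund, Ier2, Dusp1 and Atf3), with gaps of −3.15 for Ier2, −2.99 for Jun, −2.83 for Junb, −1.84 for Jund and −1.66 for Dusp1. That library was the lowest for 38.9% of all genes, and 15.5% had a gap under −1 in it. In TIM4+CD206+ KCs it was replicate 1 for 6 members (Dusp1, Egr1, Ier2, Junb, Fos and Egr2), as for 32.9% of all genes. There 6 members had a gap under −1, as did 5.15% of all genes, while replicate 3 was the lowest for Jun and Jund. These gaps are taken against a mean that includes the high replicate 2 and are the more negative for it. In tumour-bearing TIM4+CD206+ KCs replicate 2 was the highest sample for the same 6 genes once more, as for 34.3% of all genes. No member had a gap over 1 in any tumour-bearing TIM4+CD206hi sample. Over all genes 0.23%, 0.47% and 0.11% did in replicates 1, 2 and 3 of that group.

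**Figure D4:**
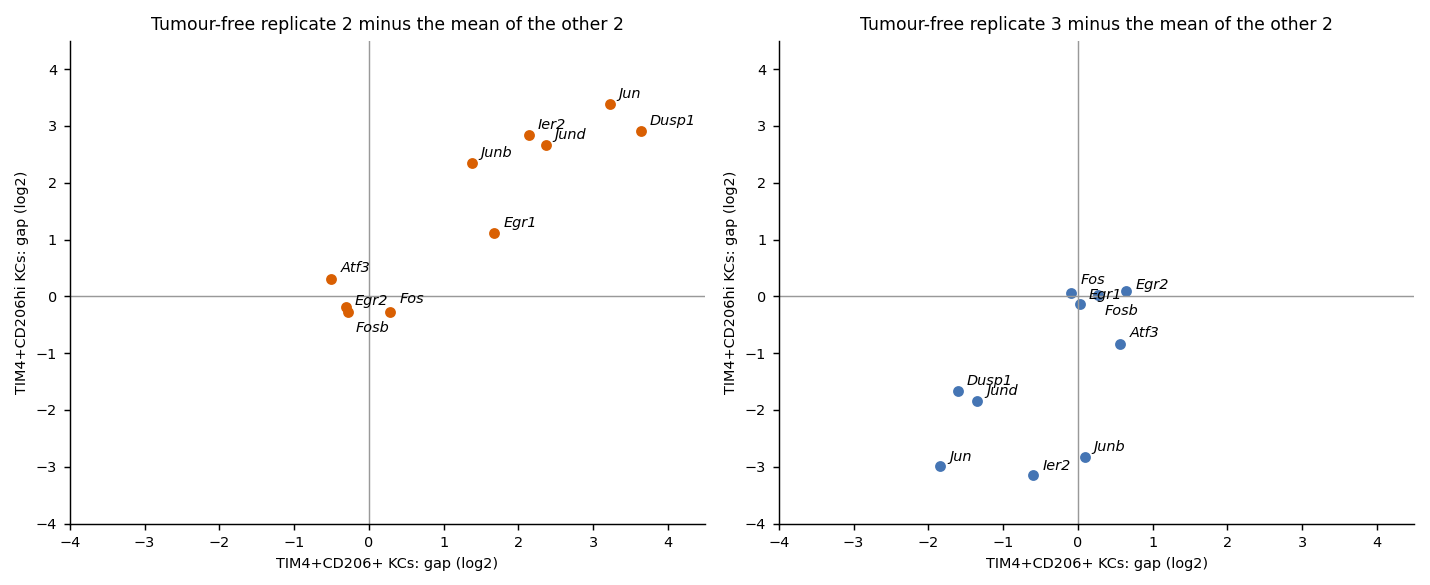
Gap on the log2 scale between 1 tumour-free library and the mean of the other 2 of its group, in TIM4+CD206+ KCs (horizontal axis) against TIM4+CD206hi KCs (vertical axis), for tumour-free replicate 2 (left) and replicate 3 (right). Each point is 1 of the 10 genes. Jun, Dusp1, Jund, Ier2, Junb and Egr1 lie over 1 on both axes for replicate 2, whereas Fos, Fosb, Egr2 and Atf3 lie near 0, and the values for replicate 3 are taken against a mean that includes replicate 2.

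Other values moved with these libraries. Across 14401 genes of the TIM4+CD206hi table, the gap of replicate 2 correlated with GC content (Spearman's rho across genes 0.31) and that of replicate 3 inversely (−0.40), genes of 1 library not being independent. Among the 2880 genes of over 55.8% GC, 25.6% had a gap over 1 in replicate 2 and 34.5% one under −1 in replicate 3, against 6.70% and 5.87% among the 2881 genes of up to 44.4% GC. In TIM4+CD206+ KCs the rho for tumour-free replicate 2 was 0.00040, but the share of genes with a gap over 1 was 13.9% in the class of highest and 5.64% in that of lowest GC content, and the rho for tumour-bearing replicate 2 was 0.23. Jund (67.1% GC), Junb (62.6%), Ier2 (60.9%) and Fosb (56.0%) belong to the first of these classes, and of them Jund, Junb and Ier2 have 1 exon, as does Jun (55.5%). Dusp1 (54.9%) and Egr1 (53.6%), which had gaps over 1, are lower in GC content than Fosb, which had none, and above Atf3 (52.2%), Fos (51.9%) and Egr2 (51.4%). Of 168 genes with 1 exon and at least 55% GC, 54 had a gap over 1 in replicate 2 of TIM4+CD206hi KCs, and of 157 such genes 33 did in TIM4+CD206+ KCs. Neutrophil genes were higher in replicate 3, with a median gap of 1.16 in TIM4+CD206+ and 1.37 in TIM4+CD206hi KCs (7 of 10 over 1 in each), and endothelial genes lower in replicate 2, at −1.46 and −0.76. The part of GC content and of other cells in the members' spread was not tested.

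The 8 genes whose profile was most like the mean of the 10 members, over 17 samples and 12222 genes after centring on each table, were Ppp1r35, Tbcc, Ssbp4, Csf2ra, Iscu, Fam53a, Fdx1 and Rnaset2b, with Pearson's r from 0.992 to 0.986. Csf2ra encodes a chain of the GM-CSF receptor, Iscu and Fdx1 serve iron-sulphur clusters in mitochondria, and none of the 8 was on the lists of immediate early genes. After centring on each group they were Ppp1r35, Tbcc, Serp1, Ssbp4, Zbtb7a, Acadl, Clasrp and Gm10677 (0.993 to 0.990). The mean holds every member and was taken on unscaled values, so that the members that vary most weigh most in it. Of the members, Jun (0.98), Ier2 (0.97) and Jund (0.96) followed that mean most closely in the centring by table. Fos (0.04) and Egr2 (0.06) followed it hardly at all, and Fosb ran against it (−0.52). These are descriptions over samples that share tables and libraries.

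The comparison of Clec4fCreId3f/f with Id3f/f KCs asked whether the loss of Id3 altered these genes in the absence of tumour. None of the 10 members passed, where 6.44% of 12833 genes tested did (827 genes). The SDs within both groups were smaller than in tumour-free samples of either KC subset for Jun, Junb, Jund, Egr1, Ier2 and Dusp1. This did not hold for Fos and Egr2, whose SDs in Id3f/f KCs were 0.20 and 0.24. In tumour-free TIM4+CD206hi KCs they were 0.17 and 0.105. The tables were normalized separately, and the difference in spread was not tested. With the deletion 10 of 10 changes lay between −0.34 and 0.30, with a median of −0.02. Xist and Ddx3y, expressed from the X and Y chromosomes, differed between the genotypes (3.44 and −2.44), so that sex and genotype cannot be told apart.

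Egr1 was at 8.44, 8.39 and 8.42 in the Id3f/f samples and 8.20 and 7.96 in the Clec4fCreId3f/f samples, a log2 fold change of −0.34 (−0.56 to −0.11, adjusted p by limma = 0.078). Both Clec4fCreId3f/f samples were below all 3 Id3f/f samples, as was the case in either direction for 41.9% of all genes. Egr1 passed without Id3f/f replicate 3 (−0.34, adjusted p by limma = 0.049) and after removal of GC and length trends (−0.42, adjusted p by limma = 0.035). Dusp1 was at 12.20, 12.26 and 11.86 in the Id3f/f samples and 12.43 and 12.39 in the Clec4fCreId3f/f samples, a change of 0.30 (0.035 to 0.57, adjusted p by limma = 0.16), both Clec4fCreId3f/f samples being above all Id3f/f samples. Egr1 and Dusp1 were the members with an unadjusted p under 0.05, which 23.6% of all genes had. Junb, at 12.45, 12.56 and 12.61 in the Id3f/f samples and 12.63 and 12.65 in the Clec4fCreId3f/f samples, also had groups apart, by 0.10 (−0.09 to 0.29).

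The other members overlapped between genotypes. Fos was at 10.16, 9.76 and 9.94 in the Id3f/f samples and 9.66 and 9.77 in the Clec4fCreId3f/f samples (−0.23, −0.51 to 0.04), Jun at 10.14, 9.74 and 9.81 in the Id3f/f samples and 9.85 and 9.96 in the Clec4fCreId3f/f samples (0.01, −0.28 to 0.29) and Jund at 13.25, 13.18 and 13.22 in the Id3f/f samples and 13.22 and 13.23 in the Clec4fCreId3f/f samples. The Fos values of the Clec4fCreId3f/f samples lay at the lower edge of the controls, and those of Jun and Jund inside their range. Egr2 was at 6.66, 6.96 and 6.48 in the Id3f/f samples and 6.58 and 6.58 in the Clec4fCreId3f/f samples (−0.12, −0.39 to 0.15), and Atf3 at 9.87, 9.93 and 9.64 in the Id3f/f samples and 9.78 and 9.74 in the Clec4fCreId3f/f samples (−0.05, −0.29 to 0.19). Ier2 ranged over 11.06 to 11.21 and Fosb over 4.20 to 4.32 in the 5 samples, with changes of −0.02 each. For Jun, Junb, Jund, Ier2 and Fosb the intervals ran no further than −0.28 to 0.29. They cannot be set against the sizes seen in the tumour experiment, since the tables were normalized separately and the low values of Fosb are shrunk.

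Of the other immediate early genes, 0 of 34 tested passed by limma in TIM4+CD206+ KCs, where 3.54% of all genes did, with a median of −0.22. With the replicate block, Socs3, a cytokine signalling inhibitor, was higher (1.84, adjusted p by limma = 0.0026) and Tnfaip3, an inhibitor of NF-κB, lower (−1.07, adjusted p by limma = 0.024). In that setting 1026 of 13233 genes passed. In TIM4+CD206hi KCs 3 of 37 passed, where 7.23% of all genes did. Socs3 rose from 9.13, 10.25 and 7.96 in the tumour-free to 12.01, 12.06 and 11.72 in the tumour-bearing samples, a log2 fold change of 2.82 ± 0.52 (SE, adjusted p by limma = 0.019). Fosl1 (FRA-1), a FOS protein that lacks a transactivation domain, rose by 1.10 (adjusted p by limma = 0.043), and Plk2, a polo-like kinase, fell by 1.26 (adjusted p by limma = 0.025). Socs3 and Plk2 did not pass without tumour-free replicate 1 or without any of the tumour-bearing samples, and of the other settings run Fosl1 passed only without the mean-variance trend and without tumour-free replicate 2. The median of the list was 0.37. Without tumour-free replicate 2, 12 of the 37 listed genes passed, where 25% of 14505 genes did. Among the 12 were Cebpd (1.97), Ier5 (1.53), Btg1 (1.48), Ifrd1 (1.37) and Myc (1.30).

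In the Id3 comparison 5 of 34 other immediate early genes passed, where 6.44% of all genes did. Nr4a1 (NUR77), an orphan nuclear receptor, rose from 9.71, 9.80 and 9.50 in Id3f/f to 10.53 and 10.44 in Clec4fCreId3f/f KCs, by 0.81 ± 0.11 (SE, adjusted p by limma = 0.0050). Ifrd1 fell by 0.46 (adjusted p by limma = 0.023), and Rhob, a small GTPase, rose by 0.44 (adjusted p by limma = 0.039). Klf6 was the other gene to fall and Sik1 the other to rise. Nr4a1 was not called in either tumour comparison, at −0.33 ± 0.35 and 0.11 ± 0.35 (SE). Ier3, which protects from cell death, had changes of 0.70 and 0.50 with tumour and −0.34 with the deletion, and Fosl2 (FRA-2) of −0.37, 0.21 and 0.06, none of which passed. Without either of the Clec4fCreId3f/f samples 0 of these genes passed, and 17 or 19 genes did in all.

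Upstream, the serum response factor Srf, which drives Fos and Egr1 through CArG boxes, had log2 fold changes of −0.23, 0.06 and 0.13 in the 3 comparisons, none past the threshold. Of 20 upstream genes, 0 passed in TIM4+CD206+ KCs and 1 in TIM4+CD206hi KCs, where Elk3, an ETS partner of Srf that is abundant in endothelium, fell by 0.90 (adjusted p by limma = 0.0499) beside the lower endothelial genes given above. Whether these contributed was not tested. In the Id3 comparison Crem fell by 0.78, and Rps6ka1 and Mapk14 (p38α) rose by 0.49 and 0.46 (adjusted p by limma from 0.0062 to 0.020). Of the zipper partners, 0 of 15 passed in TIM4+CD206+ KCs and 1 of 15, again Fosl1, in TIM4+CD206hi KCs, and with the deletion Nfe2l2 (NRF2), the oxidative stress factor, fell by 0.65 (adjusted p by limma = 0.0073). Of the feedback genes, Dusp10, another phosphatase of p38 and JNK, fell by 0.86 with tumour in TIM4+CD206+ KCs (1 of 13, adjusted p by limma = 0.045) and rose by 0.44 with the deletion (1 of 13, adjusted p by limma = 0.036), and 0 of 16 passed in TIM4+CD206hi KCs. Nab2, a corepressor of EGR proteins, had changes of −0.21, 0.73 and −0.09, and Zfp36 (tristetraprolin), which destabilizes cytokine mRNAs, of −0.12, 0.04 and −0.07, without a call. The median changes in the 3 comparisons were −0.13, 0.06 and 0.06 for the upstream genes, −0.03, 0.21 and −0.09 for the partners and −0.15, 0.26 and 0.01 for the feedback genes. Over all genes 3.54%, 7.23% and 6.44% passed in them.

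Of the genes known as AP-1 targets, 7 of 23 rose in TIM4+CD206+ KCs with tumour and 0 fell, with a median of 0.54. Over all genes 3.54% passed in that comparison, 7.23% in TIM4+CD206hi KCs and 6.44% with the deletion. Spp1 (osteopontin) rose from 10.17, 8.77 and 9.63 to 13.61, 13.70 and 13.13 (3.95 ± 0.34 SE, adjusted p by limma = 0.00059), Mmp12 (macrophage elastase) from 10.22, 9.77 and 10.72 to 12.78, 13.19 and 13.30 (2.85 ± 0.26 SE, adjusted p by limma = 0.00081) and Plaur (the urokinase receptor) by 1.47 ± 0.16 (SE, adjusted p by limma = 0.0021). The tumour-bearing and tumour-free samples did not overlap for these 3 genes. In TIM4+CD206hi KCs 2 of 23 rose (median 0.69), Spp1 by 3.96 ± 0.27 and F3 (tissue factor) by 3.43 ± 0.42 (SE, adjusted p by limma = 0.00019 and 0.0030). Both are also expressed by carcinoma cells, and the epithelial genes were higher in the same samples. The monocyte genes also summed higher in TIM4+CD206+ samples with tumour (43925 to 51708) than without (13973 to 37029), as did the neutrophil genes given above. The part of tumour cell, monocyte and neutrophil RNA in the target genes was not tested. With the deletion of Id3, 6 of 21 targets fell and 0 rose, with a median of −0.26. Mmp12 fell by 1.74 ± 0.37, Ccl2 by 1.15 ± 0.12 and Ccl4 by 0.67 ± 0.13 (SE, adjusted p by limma from 0.0015 to 0.026). Ccl2 and Ccl4 are chemokines for monocytes and lymphocytes. The monocyte genes summed to 12643 to 15272 in Id3f/f and 7761 to 8235 in Clec4fCreId3f/f KCs, and their part was not tested. These calls rest on 2 Clec4fCreId3f/f samples, and leaving out either leaves no spread within that group to test. Without Id3f/f replicate 3, 10 of the targets passed, where 1850 of 12828 genes did.

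Heat shock genes, which also respond to tissue handling, had no call in any comparison, where 3.54%, 7.23% and 6.44% of all genes passed. By limma 0 of 15, 0 of 15 and 0 of 14 passed, with medians of −0.14, 0.08 and −0.07. With the replicate block, Hsp90aa1 passed in TIM4+CD206+ KCs (0.70, adjusted p by limma = 0.031), as did 1026 of 13233 genes. Without tumour-free replicate 2 of TIM4+CD206hi KCs 4 of 15 passed, where 25% of all genes did. They were Hspb1 (2.03), Dnaja1 (−0.58), Hspa8 (−0.68) and Dnajb4 (−0.72). Hspa1a, which encodes the inducible HSP70, was at 6.57, 8.34 and 5.87 in the tumour-free and 6.03, 6.86 and 5.98 in the tumour-bearing samples in TIM4+CD206+ KCs, replicate 2 being the highest without tumour. In TIM4+CD206hi KCs it was at 8.56, 8.35 and 5.98 in the tumour-free and 8.21, 7.41 and 7.51 in the tumour-bearing samples, where replicate 3 was the lowest and replicate 2 was not the highest. Hspa1b followed the same order in TIM4+CD206+ tumour-free samples (6.43, 7.68 and 5.62) and in TIM4+CD206hi tumour-free samples (9.04, 8.09 and 6.20). These genes are nearly identical, and reads may be shared between them.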

How the data were processed

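KCs were sorted from digested liver directly into TRIzol, and the authors amplified their RNA with the SMART-Seq v4 kit, which does not mark strand, before sequencing. Per the labels' processing notes, STAR 2.7.10a, HTSeq and DESeq2 were used with mm10. The values deposited by the authors are log2 values that behave like DESeq2's regularized log, computed separately for each of the 3 tables, and genes without reads are at 0. A count test was therefore not used, although the tables are named as counts and TPM.

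Genes with a value of at least log2 of 10 in 3 samples (2 for the Id3 table) entered limma (3.58.1, run under R 4.3.3) with its trend option, and p-values were adjusted by Benjamini-Hochberg (threshold 0.05) after a test on simulated data. Each table was tested alone, and levels in different tables were only set side by side. A block for the replicate number was run as an alternative in each of the 3 tables. In TIM4+CD206+ KCs the correlations across genes of deviations from the group means were 0.35, 0.56 and 0.15 for the same number. Unlike numbers gave 0.30 (tumour-free 1 with tumour-bearing 3) and 0.16 (3 with 1), and −0.53 to −0.25 where 1 of the numbers was 2. Only replicate 2 thus stood apart, and these values do not show that numbers 1 and 3 mark pairs. The main fits hold no block.

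The members and the gene lists were chosen with earlier results of these data known. Members are given in full. Of other lists, the 3 genes with the largest change among those called in a comparison are named, with Nab2, Srf, Zfp36, Nr4a1, Ier3, Fosl2, Hspa1a and Hspa1b, the check gene Id3, 4 KC markers and, for likeness, 8 genes by correlation with the members' mean profile. Genes named for a setting with a block or without a sample, Klf6, Sik1, Xist and Ddx3y were added after their values were seen. Under this rule 1 called gene is not reported here. GC content and length came from GENCODE M21 (GRCm38) for 98.0% of genes, and promoters from RefSeq (GRCm38.p6). Python 3.11.15 was used for descriptions and plots, with pandas 2.3.3, scipy 1.17.1 and matplotlib 3.10.9.

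The alternatives were no filter, a filter at a mean of log2 of 50, the replicate number as a block, no mean-variance trend, median centring, quantile normalization and each sample left out. Removal of GC and length trends by splines with 5 degrees of freedom, alone, with the block or without 1 sample, was chosen after seeing the data.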

Additional observations from a re-analysis of the deposited data

How the results depend on the processing

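With the replicate number as a block, 1026 genes were called in TIM4+CD206+, 909 in TIM4+CD206hi and 2089 in Id3 KCs, and with GC and length trends removed as well 916 and 1714 in the first and last of these. Same-number correlations in the last 2 tables were −0.05, −0.13 and −0.05, and −0.07 and −0.10, and do not show that numbers pair samples there. With 2 Clec4fCreId3f/f samples the deviations are exact opposites (−0.07 and 0.07 for Id3f/f replicate 1). The values of the Id3 table therefore cannot decide the question. A stricter filter gave 600 genes in TIM4+CD206hi KCs, no filter 477 in the Id3 comparison, and removal of both trends without tumour-free replicate 2 gave 4909. The 758 higher and 295 lower genes of TIM4+CD206hi KCs became 664 and 518 after quantile normalization and 692 and 518 after removal of trends, and median centring moved the median of all genes from 0.03 to −0.13. With 1 sample left out, 231 to 1032, 444 to 3633 and 17 to 1850 genes were called in TIM4+CD206+, TIM4+CD206hi and Id3 KCs, a lone Clec4fCreId3f/f sample being taken to vary like the other group.

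Called members numbered 1 in TIM4+CD206hi KCs (Fosb) after quantile normalization and after removal of trends with or without the block, 5 with trends removed and without tumour-free replicate 2, and 0 to 7 with 1 sample left out. In the Id3 comparison they numbered 1 (Egr1) with the block or with trends removed, 2 (Egr1 and Egr2) with both, and 0 to 1 with 1 Id3f/f sample left out. Replicate number 3 exists only in Id3f/f, so the block there takes up that sample. Its fold changes are those without Id3f/f replicate 3 (members' median −0.041 in both), and these settings are not separate checks. Of 418 member values under the alternatives, 361 kept direction and call, 18 gained a call in the same direction and 39 changed sign, of which 2 gained a call (Dusp1 in TIM4+CD206hi KCs without tumour-free replicate 2, with or without removal of trends). Sign changes with all samples were those of Jun in TIM4+CD206+ KCs (−0.053 by median centring, −0.069 by quantiles), of Fos in TIM4+CD206hi KCs (−0.11 by median centring, −0.062 with trends removed, with or without the block), and in the Id3 comparison of Fosb (0.021 with the block), Jun (−0.038 with the block, −0.020 by median centring, −0.00053 by quantiles, −0.094 with trends removed, −0.13 with the block too), Jund (−0.021 by median centring, −0.010 with trends removed, −0.0080 with the block too) and Ier2 (0.0039 by quantiles, 0.018 with trends removed). Trends removed without tumour-free replicate 2 gave −0.22 for Fos and 0.55 for Dusp1. The causes were not tested.

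With 1 sample left out, the ranges that crossed 0 in TIM4+CD206+ KCs were −1.79 to 0.10 for Dusp1, −0.18 to 1.05 for Ier2, −0.60 to 1.09 for Jun, −0.071 to 0.87 for Junb and −0.72 to 0.52 for Jund, and in TIM4+CD206hi KCs −0.65 to 0.88 for Dusp1 and −0.044 to 0.12 for Fos. In the Id3 comparison they were −0.14 to 0.0040 for Atf3, −0.23 to 0.0091 for Egr2, −0.039 to 0.021 for Fosb, −0.045 to 0.028 for Ier2, −0.070 to 0.13 for Jun and −0.011 to 0.023 for Jund.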
